A study of Mus musculus with 15 samples.

Results

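Jchain, Mzb1 and Erp44, 3 genes that serve the assembly of polymeric IgM and IgA, were followed across 5 groups of sorted mouse plasma cells. They were taken by symbol, with the abundance of all transcripts of a gene summed, and make up 3 of the 22339 genes in the table. Plasma cells are the antibody-secreting end stage of the B lineage. All cells came from untreated, unimmunised male C57Bl6/N mice aged 8 to 12 weeks, were CD138-high, Ly6g- and CD11c-, and were sorted again after the first sort, with about 30000 cells to a subset. The spleen was split by both marks, into B220+2NBDG- cells and B220-2NBDG- cells that did not take up the label, and B220+2NBDG+ cells and B220-2NBDG+ cells that did. The bone marrow gave BMPC, which were B220- and 2NBDG+. B220 is the CD45 form of B cells, and 2NBDG is a fluorescent glucose analogue that marks cells taking up glucose. Each of the 5 groups has 3 libraries described as biological replicates. How many mice went into a library is not given in the sources used here, so p-values measure the spread between these libraries.

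IgM is secreted as a pentamer and IgA as a dimer, and both are closed by disulfide bonds to a single joining chain, the J chain encoded by Jchain. The J chain is also what the polymeric immunoglobulin receptor binds when it carries IgM and IgA across epithelia into secretions. Mzb1 encodes MZB1 (pERp1), a protein of the endoplasmic reticulum of B and plasma cells that works with the chaperone GRP94 in the folding and oxidation of heavy chains and promotes the binding of J chain to IgA. Erp44 encodes ERp44, a thioredoxin-family protein that cycles between the endoplasmic reticulum and the Golgi and holds back IgM subunits with unpaired cysteines until they have polymerised.

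Each of the 3 genes was listed with 1 protein-coding transcript (GENCODE M21, build GRCm38), on the minus strand. Jchain (ENSMUSG00000067149.6) lies on chromosome 5 from 88519809 to 88527891, with a transcript of 1393 nt. Erp44 (ENSMUSG00000028343.10) lies on chromosome 4 from 48193323 to 48279558, with a transcript of 2624 nt. RefSeq start sites (build GRCm38.p6) were used for 2 of the 3 genes, Jchain and Erp44, and no window is shown for Mzb1. The 250 bases upstream of these 2 starts are shown because the genes moved apart between the groups. They are written 5′ to 3′ on the minus strand, at chr5:88527898-88528147 for Jchain and at chr4:48279636-48279885 for Erp44 (the farthest upstream of its starts), with matches to the searched motifs in capitals.
Jchain: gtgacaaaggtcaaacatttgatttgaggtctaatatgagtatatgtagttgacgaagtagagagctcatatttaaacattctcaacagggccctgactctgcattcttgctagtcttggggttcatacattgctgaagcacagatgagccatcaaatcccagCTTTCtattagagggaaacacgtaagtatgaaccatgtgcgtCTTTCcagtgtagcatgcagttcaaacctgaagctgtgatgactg
Erp44: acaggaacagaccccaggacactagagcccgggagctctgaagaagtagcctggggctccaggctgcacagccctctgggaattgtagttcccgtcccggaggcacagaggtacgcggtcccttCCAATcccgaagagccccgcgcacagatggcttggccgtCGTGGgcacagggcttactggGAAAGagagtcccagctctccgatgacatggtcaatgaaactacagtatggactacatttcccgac

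The motifs, searched on both strands, were CCACG (part of the endoplasmic reticulum stress response element), GACGTG (core of the unfolded protein response element), CCAAT (the CCAAT box) and GAAAG (a core shared by sites for Blimp-1 and interferon regulatory factors). The Jchain window held GAAAG, on the reverse strand, with the first base of each match at -87 and -45 from the start, and none of the other 3. In the Erp44 window CCAAT stood at -126 and GAAAG at -66 on the forward strand, with CCACG at -87 on the reverse strand. Among 32817 windows of this length, 28.3% held CCACG, 5.2% held GACGTG, 33.8% held CCAAT and 51.5% held GAAAG. The matches are letters in a window, and binding was not measured.

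Levels are in TPM, transcripts per 1000000 corrected for transcript length, so a share of TPM is not a share of reads. In 28 genes for J and D segments alone lay 57.5% to 62.7% of the TPM of a library. All genes of the immunoglobulin loci held 91.1% to 96.6% of it, and this share was not the same in all groups. Levels are therefore given on 2 scales: as deposited, relative to all transcripts, and with the 262 immunoglobulin locus genes set aside and the rest rescaled to 1000000 (a factor of 11.2 to 29.3). The libraries held an estimated 17292871 to 24865825 reads, 4406466 to 9918980 of them outside the immunoglobulin loci, so these loci held a smaller share of the reads than of the TPM. An estimated 329956 to 1338279 reads per library fell on Jchain, 16599 to 65330 on Mzb1 and 1007 to 3863 on Erp44. All 5 plasma cell markers checked (Sdc1, Prdm1, Irf4, Xbp1, Tnfrsf17) were present in all groups, and their summed level was lowest in B220+2NBDG- (659 to 1083 TPM, against 902 to 1368 TPM in the other groups). A spleen library, B220+2NBDG- replicate 3, was less like its own group than other libraries were (r over genes 0.946 and 0.939 with replicates 1 and 2), and values that rest on it are also given without it.

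Jchain was among the most abundant transcripts outside the immunoglobulin loci, and its fitted level relative to those transcripts differed 3.77-fold between the lowest group, B220+2NBDG-, and the highest, BMPC. With immunoglobulin genes set aside the 3 libraries of the B220+2NBDG- group held 23142, 23756 and 34440.4 TPM of it (mean 27113 ± 6353, SD, n = 3). The B220-2NBDG- libraries held 58574.5, 51852 and 54609.8 TPM (55012 ± 3379), and the libraries of B220+2NBDG+ cells 53819, 45849 and 53790.3 TPM (51153 ± 4593). The B220-2NBDG+ libraries held 84898, 80689 and 76026 TPM (80538 ± 4438), and those of BMPC 124923, 86131 and 94448 TPM (101834 ± 20424). The 2 groups in between overlapped each other. Every B220+2NBDG- library lay below all others, and every B220-2NBDG+ and BMPC library lay above both of them. The share of Jchain in the TPM outside the immunoglobulin loci was 2.71% ± 0.64 for the B220+2NBDG- group, 8.05% ± 0.44 for B220-2NBDG+ cells and 10.2% ± 2.04 for BMPC. It was the highest of all genes outside these loci in each B220-2NBDG+ and BMPC library, and at rank 2 or 3 in the others.

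Relative to all transcripts, as deposited, the same libraries lay closer together. Among B220+ cells, Jchain was 2066, 1963 and 2716 TPM without the label (2248 ± 409) and 2514, 2199 and 2344 TPM with it (2352 ± 157). Among B220- cells, it was 3041, 2746 and 2995 TPM without the label (2927 ± 159) and 3154.5, 2997 and 2598 TPM with it (2917 ± 287). On this scale the 2NBDG+ and 2NBDG- libraries overlapped within each B220 class, while B220- libraries lay above B220+ libraries at the same 2NBDG state. BMPC held 6369.5, 4017 and 3459 TPM (4615 ± 1545), above every spleen library.

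Mzb1 (ENSMUSG00000024353.5; chromosome 18, 35647267 to 35649367, transcript of 905 nt) ran the other way across the groups, over a narrower range. With immunoglobulin genes set aside the B220+ cells held 7639, 6566 and 10035 TPM of it without the label (8079.9 ± 1776) and 6727, 6258 and 7228 TPM with it (6738 ± 485). The B220- cells of the spleen held 6421, 4938 and 6934 TPM without the label (6097.5 ± 1036) and 5959, 5397 and 5709 TPM with it (5688 ± 281), and BMPC held 5137, 3559.7 and 4383 TPM (4359.6 ± 789). The spleen groups overlapped each other, except that B220-2NBDG+ libraries lay below both B220+ groups. Each BMPC library lay below every spleen library outside the B220-2NBDG- group. As deposited, Mzb1 was 682, 542 and 791 TPM in the B220+2NBDG- libraries (672 ± 125), above every other library. It was 333, 262 and 380.3 TPM in unlabelled B220- cells (325 ± 59.8) and 314, 300.2 and 315 TPM in labelled B220+ cells (309.8 ± 8.30). Labelled B220- cells of the spleen held 221, 200.5 and 195 TPM (206 ± 13.9) and BMPC 262, 166 and 160.5 TPM (196 ± 57.0), and these last groups overlapped each other.

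Erp44, a retention factor of low abundance beside the other 2, followed the order of Mzb1 in its group means. The top place of B220+2NBDG- with immunoglobulin genes set aside rested on replicate 3 (164 TPM). Replicates 1 and 2 of that group, at 109 and 94.9 TPM, lay below the B220+2NBDG+ mean (115 TPM). With immunoglobulin genes set aside, B220+ cells held 109, 94.9 and 164 TPM without the label (123 ± 36.4) and 126, 100.5 and 119.5 TPM with it (115 ± 13.4). Spleen B220- cells held 91.0, 102 and 109 TPM without the label (100.5 ± 8.98) and 98.4, 83.7 and 90.5 TPM with it (90.9 ± 7.35), and BMPC 64.03, 65.2 and 73.5 TPM (67.6 ± 5.15). All 3 BMPC libraries lay below all 12 spleen libraries. As deposited, Erp44 was 9.76, 7.84 and 12.9 TPM in the B220+2NBDG- libraries, above every other library. It was 4.72, 5.38 and 5.97 TPM in unlabelled B220- cells and 5.90, 4.82 and 5.21 TPM in labelled B220+ cells, with the 2 groups interleaved. Labelled B220- cells of the spleen held 3.66, 3.11 and 3.09 TPM and BMPC 3.26, 3.04 and 2.69 TPM, which overlapped.

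**Figure D1:**
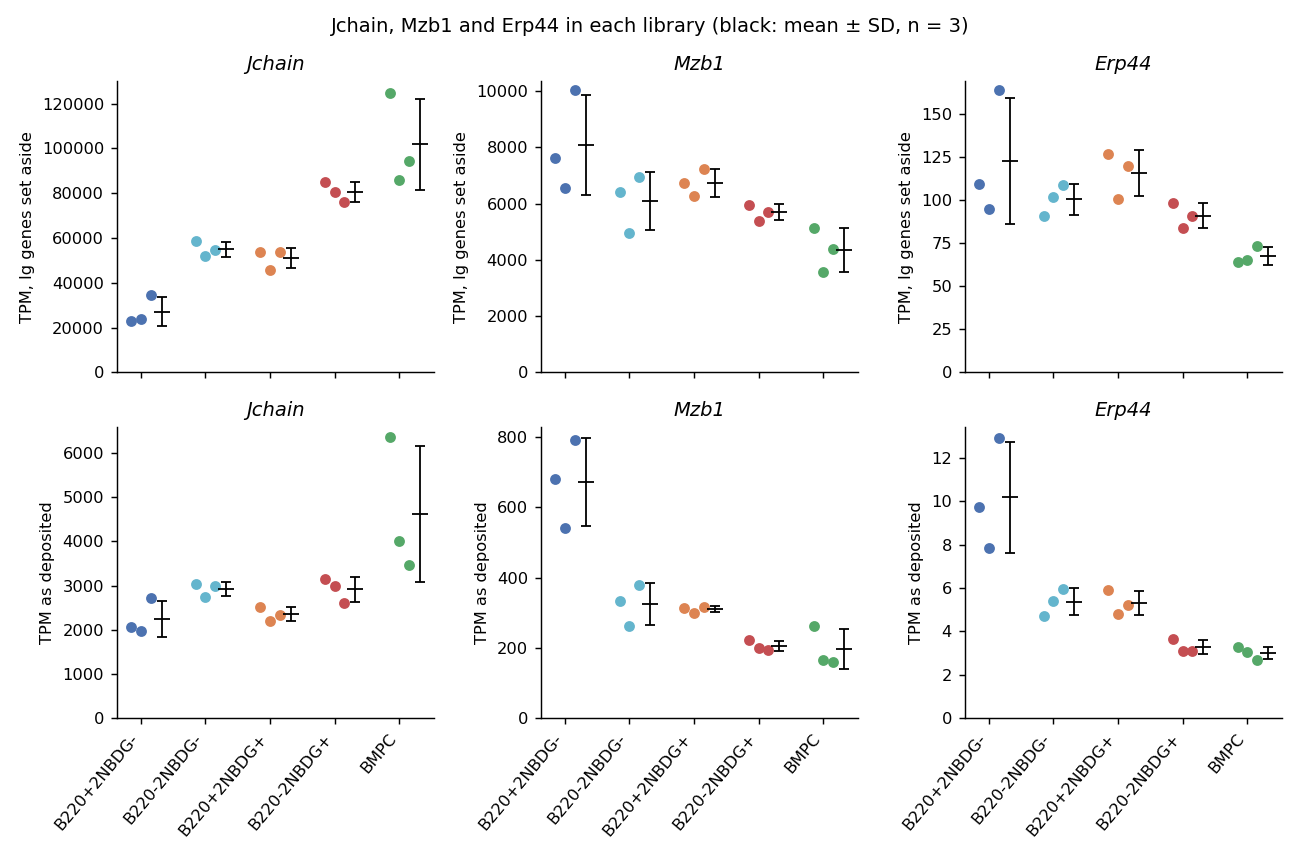
Level of each gene in each of the 15 libraries (points; bars, mean ± SD, n = 3), in TPM with immunoglobulin genes set aside (top) and as deposited (bottom), with linear axes that start at 0. In the top row the mean of Jchain is lowest in B220+2NBDG- and highest in BMPC, and the reverse holds for Mzb1 and Erp44. In the bottom row Jchain is higher in the B220- spleen groups (means 2927 and 2917 TPM) than in the B220+ groups (2248 and 2352 TPM). Mzb1 and Erp44 are highest in B220+2NBDG- there.

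The groups were compared with limma on log2(TPM + 1), all genes in 1 model, and a gene was called at an adjusted p (Benjamini-Hochberg, over 11246 genes) under 0.05. In sorted bulk libraries, a smaller share of cells expressing a gene and less RNA of it per cell cannot be told apart. With uptake of 2NBDG, averaged over B220, Jchain rose among spleen cells by 0.74 ± 0.11 (log2 fold change ± SE), a 1.67-fold difference, with limma's adjusted p = 0.00128. In that comparison 6.46% of the tested genes were called, 2.02% higher and 4.44% lower. Mzb1 (-0.16 ± 0.12, adjusted p = 0.477 by limma, 95% interval -0.42 to 0.09) and Erp44 (-0.10 ± 0.12, 0.724, -0.37 to 0.17) were not called. Without replicate 3 of B220+2NBDG- the Jchain value was 0.84, with limma's adjusted p = 3.09e-04.

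Within B220+ cells Jchain was 0.94 ± 0.15 higher in 2NBDG+ (adjusted p = 0.0111 by limma), where 2.2% of genes were called. That call was lost without replicate 3 of B220+2NBDG+ (adjusted p = 0.0622) or replicates 1 or 2 of B220+2NBDG- (0.0521 and 0.0538, limma). Within B220- cells the 2NBDG difference of Jchain was 0.55 ± 0.15 with limma's adjusted p = 0.0854, not called (2.79% of genes were). The libraries of the 2 groups did not overlap, and the share of all genes without overlap was not counted. The difference was called without replicate 3 of B220+2NBDG- (adjusted p = 0.0197) or replicate 1 of BMPC (0.046 by limma), libraries that enter only through the shared estimate of spread. The difference between the 2 strata, -0.39 ± 0.22, was not called (adjusted p = 0.968 by limma, which called 0.0267% of genes for this interaction).

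With loss of B220, averaged over 2NBDG, Jchain rose by 0.85 ± 0.11 (1.80-fold, adjusted p = 3.37e-04 by limma), in a comparison where 8.65% of genes were called, 2.8% higher and 5.85% lower. It rose by 1.04 ± 0.15 within 2NBDG- cells (adjusted p = 0.0023 by limma, 5.24% of genes called). Within 2NBDG+ cells the difference was 0.66 ± 0.15 with limma's adjusted p = 0.0539, where 1.34% of genes were called. Libraries of the same replicate number deviated together in the B220 comparisons, and with the number as a block that value had an adjusted p of 0.0360 by limma and was called, with 228 genes called in place of 151. Mzb1 was 0.32 ± 0.12 lower in B220- cells, not called without the block (adjusted p = 0.114 by limma) and called with it (0.0268). Erp44 was 0.29 ± 0.12 lower and called in neither fit (0.168 and 0.119 by limma). Where both marks differ in opposite ways, from B220-2NBDG- to B220+2NBDG+, none of the 3 genes was called. The difference was -0.11 for Jchain, 0.16 for Mzb1 and 0.20 for Erp44 (adjusted p = 0.999, 0.984 and 0.966 by limma, 1.36% of genes called; unadjusted p = 0.493, 0.364 and 0.283).

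Replicate 3 of B220+2NBDG- held the most Jchain, Mzb1 and Erp44 of its group on either scale. Without it, the B220 difference of Jchain within 2NBDG- cells was 1.23 and that of Erp44 was -0.02, against -0.25 with it. That of Mzb1 was -0.23 without it and -0.40 with it, and averaged over 2NBDG it was -0.24 and -0.32. The 2NBDG difference within B220+ cells was 0.17 without this library and -0.05 with it for Erp44, and -0.07 and -0.24 for Mzb1, not called in either fit.

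On TPM as deposited the calls changed hands, and the background with them. Between 2NBDG+ and 2NBDG- cells limma then called 73.7% of all genes, 73.4% lower and 0.249% higher. Mzb1 (-0.87 ± 0.13, adjusted p = 1.46e-04) and Erp44 (-0.68 ± 0.11, 1.49e-04) were among the lower ones, and Jchain was not called (0.03 ± 0.13, adjusted p = 0.809 by limma). Between B220- and B220+ cells 59.5% of genes were lower and 1.48% higher on this scale. Jchain was among the few called higher (0.35 ± 0.13, adjusted p = 0.0302 by limma), and Mzb1 (-0.82 ± 0.13, 3.88e-04) and Erp44 (-0.68 ± 0.11, 3e-04) were lower. On this scale limma called 61% of genes. Within strata it called Mzb1 and Erp44 lower with 2NBDG in B220+ and in B220- cells (66% and 23.4% of genes called) and without B220 in 2NBDG- cells (57%), and none of the 3 genes without B220 in 2NBDG+ cells (1.94%), for the interaction (0.711%) or between B220+2NBDG+ and B220-2NBDG- (1.83%). With immunoglobulin genes set aside the median of all genes was -0.04 for 2NBDG and -0.09 for B220. As deposited it was -0.21 and -0.17, medians that understate the shift, because the added 1 TPM shrinks the differences of low genes. The rescaling factor was 11.2 to 12.7 in B220+2NBDG- and 26.9 to 29.3 in B220-2NBDG+ libraries. How far Mzb1 and Erp44 lay beyond the shift of all genes cannot be read from the deposited medians.

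**Figure D2:**
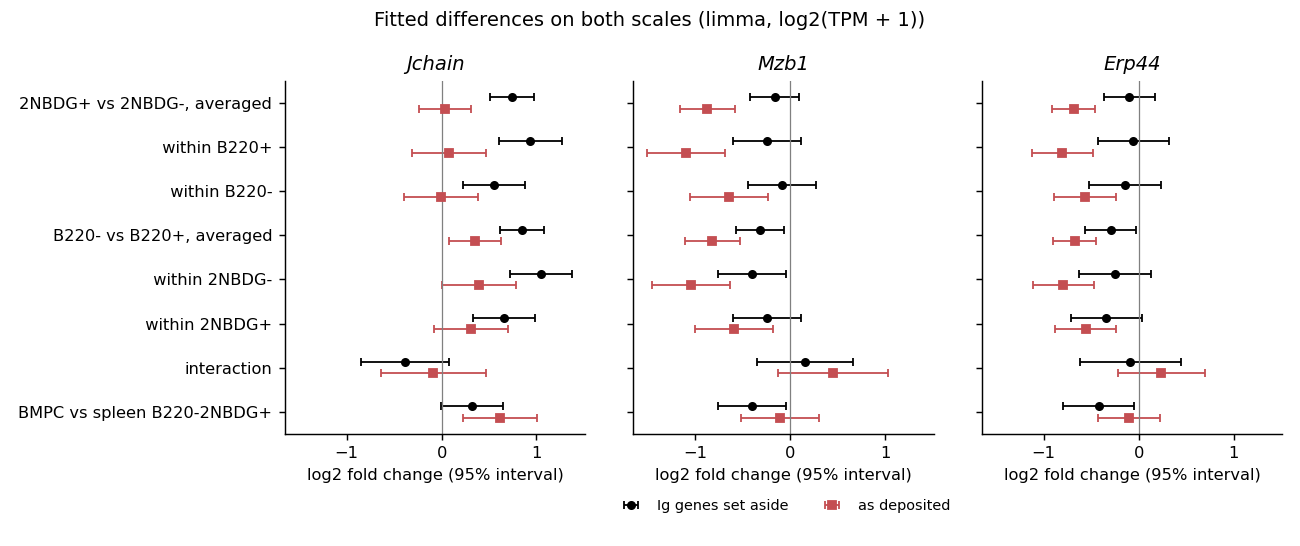
Fitted log2 fold change of each gene in 8 comparisons with its 95% interval (limma on log2(TPM + 1)), with immunoglobulin genes set aside (black circles) and as deposited (red squares). Jchain lies above 0 for 2NBDG with immunoglobulin genes set aside (0.74) and at 0.03 as deposited, and Mzb1 and Erp44 lie further below 0 as deposited (-0.87 and -0.68) than with immunoglobulin genes set aside (-0.16 and -0.10).

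Bone marrow cells were first set against spleen B220-2NBDG+ cells, which share their sorted marks. None of the 3 genes passed the test: Jchain was 0.32 ± 0.15 higher (adjusted p = 0.305), Mzb1 0.40 ± 0.17 lower (0.244) and Erp44 0.42 ± 0.18 lower (0.242, limma, 1.92% of genes called, 1.03% higher and 0.889% lower). Their unadjusted p-values were 0.054, 0.0319 and 0.0312 by limma, where 3.84% of all genes were higher and 13% lower at an unadjusted p under 0.05. The libraries of the 2 groups did not overlap for any of the 3, and the share of all genes without overlap was not counted. The median of all genes in that comparison was -0.18. As deposited, Jchain was 0.62 ± 0.18 higher and not called (adjusted p = 0.234 by limma, 0.889% of genes called), and Mzb1 and Erp44 were both at -0.10. Replicate 1 of BMPC held the most Jchain on either scale, and without it the Jchain difference was 0.16 with immunoglobulin genes set aside, with limma's adjusted p = 0.760.

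Against the other spleen groups, BMPC held more Jchain in each case. The difference was 1.92 against B220+2NBDG- (adjusted p = 6e-06 by limma), 0.87 against B220-2NBDG- (0.00276) and 0.98 against B220+2NBDG+ (0.00178). It was also called in each of these on TPM as deposited, at 1.00, 0.61 and 0.92 (adjusted p = 2.48e-04, 0.0341 and 0.0110 by limma). In these comparisons 26.5%, 9.85% and 11.2% of genes were called with immunoglobulin genes set aside (5%, 1.86% and 1.91% higher), and 80.6%, 20% and 5.28% as deposited. Spleen B220-2NBDG+ cells held 1.59 more Jchain than B220+2NBDG- cells (adjusted p = 1.4e-05 by limma, 15.6% of genes called), and as deposited 0.39 (adjusted p = 0.065, not called, 79.3% of genes called).

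Mzb1 fell in BMPC by 0.88 ± 0.17 against B220+2NBDG- (adjusted p = 0.00216 by limma) and by 0.64 ± 0.17 against B220+2NBDG+ (0.0285). Erp44 fell by 0.81 ± 0.18 and by 0.76 ± 0.18 in the same comparisons (adjusted p = 0.00493 and 0.0174 by limma). Most calls were lower in both, 21.5% and 9.33% of genes (7.99% against B220-2NBDG-), and the median of all genes was -0.32 in each. With median-of-ratios scaling, which brought that median to -0.02 and -0.01, none of these 4 was called: Mzb1 was -0.50 and -0.25 (adjusted p = 0.146 and 0.605) and Erp44 was -0.44 and -0.38 (0.126 and 0.306, limma). Jchain stayed called in both, at 2.29 and 1.37 (adjusted p = 1.5e-05 and 0.00183 by limma). Against B220+2NBDG+ the Mzb1 call was also lost without replicate 1, 2 or 3 of that group or without BMPC replicate 2 (limma's adjusted p between 0.056 and 0.0996). The Erp44 call was lost without B220+2NBDG+ replicate 1 or BMPC replicates 1 or 2 (0.055 to 0.0638 by limma). Against B220-2NBDG- neither was called with immunoglobulin genes set aside (Mzb1 -0.49, adjusted p = 0.0842; Erp44 -0.56, 0.0592, limma). Both were called there without replicate 3 of B220+2NBDG- (limma's adjusted p = 0.0414 and 0.00973) and as deposited (0.0188 and 0.0107, where 20% of genes were called), and Erp44 also without replicate 2 of B220+2NBDG-.

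Ordered by level with immunoglobulin genes set aside, only 1 step between neighbouring groups passed the test, that of Jchain from B220+2NBDG- to B220+2NBDG+. The next Jchain steps upward, ending at BMPC, had limma's adjusted p = 0.999, 0.0854 and 0.305. No step between neighbours passed the test for Mzb1, taken downward from B220+2NBDG- to BMPC (adjusted p = 0.547, 0.984, 0.925 and 0.244 by limma), or for Erp44 in the same order (0.926, 0.966, 0.860 and 0.242).

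Ratios between the genes within a library do not depend on the scale. Among unlabelled cells the J chain transcript was 3.03, 3.62 and 3.43 times the Mzb1 transcript in B220+ libraries and 9.12, 10.5 and 7.88 times in B220- libraries. Among labelled spleen cells it was 8.00, 7.33 and 7.44 times in B220+ libraries and 14.2, 14.9 and 13.3 times in B220- libraries, and in BMPC 24.3, 24.2 and 21.6 times. The groups separated fully apart from the 2 in between, which overlapped. The ratio was 1.88 times as high in 2NBDG+ as in 2NBDG- cells and 2.25 times as high in B220- as in B220+ cells, with p = 0.005 in each by a two-sided exact permutation test (0.0175 adjusted over 7 comparisons). That is the smallest p that its 400 arrangements allow. With the libraries paired by replicate number both calls were lost (exact sign permutation p = 0.0313 in each, 0.109 adjusted over 7). That p is the smallest that 6 pairs allow, so the paired test could not pass. All 6 pairs had the higher ratio in 2NBDG+ cells, and all 6 of the B220 comparison had it in B220- cells. In BMPC it was 1.65 times that of spleen B220-2NBDG+, with an exact permutation p = 0.1, the smallest that 3 against 3 libraries allow.

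Jchain per Erp44 moved in the same way, from 224 ± 22.7 in the lowest group, B220+2NBDG-, through 444 ± 16.2 in labelled B220+ cells and 552 ± 79.7 in unlabelled B220- cells to 889 ± 65.9 in B220-2NBDG+ cells and 1519 ± 374 in BMPC. It was 1.79 times as high with 2NBDG and 2.22 times as high without B220 (exact permutation p = 0.005 in each, 0.0175 adjusted over 7). Both calls were lost when paired in the same way (0.109 adjusted over 7 in each, exact sign permutation). That is the smallest value the paired test allows, so it could not pass. In BMPC the libraries held 1951, 1322 and 1286, all above those of B220-2NBDG+ (1.68 times, exact permutation p = 0.1).

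Mzb1 per Erp44 showed no such order. Its group means ran from 58.7 (B220+2NBDG+) to 66.8 (B220+2NBDG-), and libraries overlapped in all 7 comparisons. It was 0.956 times as high with 2NBDG and 0.984 times as high without B220 (exact permutation p = 0.525 and 0.855, both 1 when adjusted over 7). In BMPC it was 80.2 in replicate 1, above the 54.6 and 59.7 of its replicates.

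**Figure D3:**
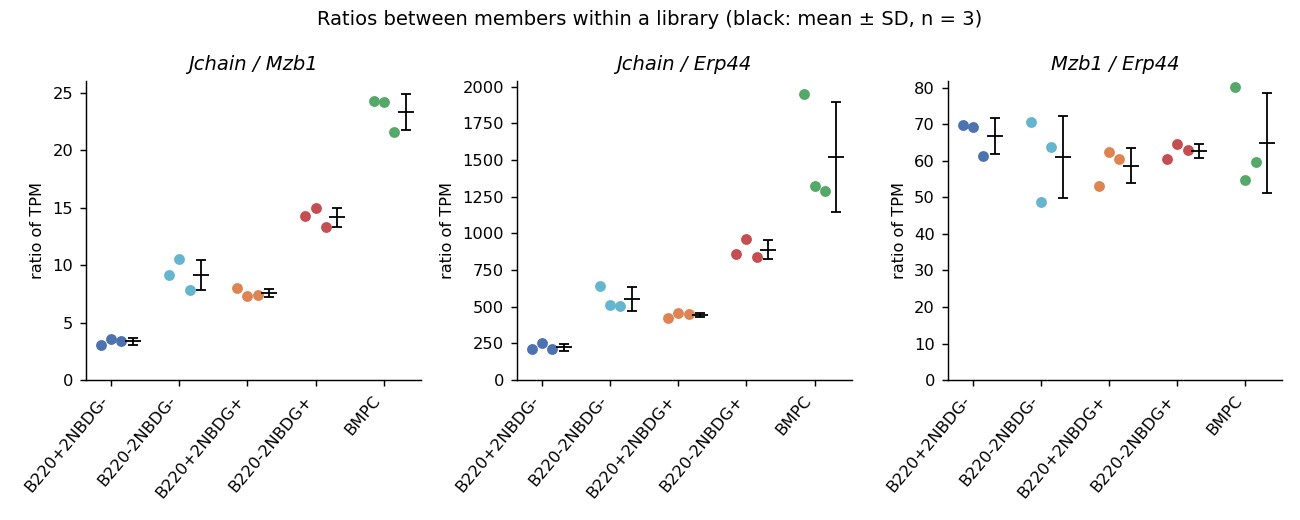
Ratio of TPM between 2 genes in each of the 15 libraries (points; bars, mean ± SD, n = 3), with linear axes that start at 0. Jchain per Mzb1 is lowest in B220+2NBDG- (mean 3.36) and highest in BMPC (23.4), as is Jchain per Erp44, while Mzb1 per Erp44 stays between 48.6 and 80.2 in all libraries.

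The J chain joins the heavy chains of IgM and IgA, so each gene was also set against the sum of Ighm and Igha, in TPM per 1000 TPM of these 2 constant genes. The ratio of Jchain was 94.6, 97.5 and 133 in unlabelled B220+ cells, 129, 124 and 130.02 in unlabelled B220- cells, and 122, 121 and 119 in labelled B220+ cells. It was 131, 160.3 and 117 in labelled B220- cells of the spleen and 219.9, 121 and 126 in BMPC. Groups overlapped in all 7 comparisons. The ratio was 1.09 times as high with 2NBDG (exact permutation p = 0.185, 0.56 adjusted over 7), 1.16 times as high without B220 (0.09 and 0.56), and 1.10 times as high in BMPC as in spleen B220-2NBDG+ (0.8 and 0.8). Replicate 1 of BMPC stood far above the other libraries, and it was also the library whose isotypes differed. Igha held 62.8% of its heavy chain constant TPM and Ighm 19.0%, against 37.8% and 31.4% for Igha and 54.5% and 52.8% for Ighm in its replicates. Without it the bone marrow difference of Jchain changed sign (log2 -0.14, exact permutation p = 0.7 when adjusted over 7). Against Igkc or all heavy chain constant genes the 2NBDG difference of Jchain changed sign as well (log2 -0.03 and -0.14) and did not pass the test.

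Mzb1 and Erp44 were lower against the same heavy chains where 2NBDG was taken up or B220 was lost, and so were most genes. The median of the 10633 tested genes above 0 TPM in all libraries was 0.634 times as high per Ighm plus Igha with 2NBDG, 0.593 times without B220 and 0.757 times in BMPC against spleen B220-2NBDG+. Every library was lower, in each stratum, for 33.2%, 40.3% and 30.3% of these genes. Mzb1 stood at 32.3 ± 5.95 TPM per 1000 TPM of Ighm plus Igha in unlabelled B220+ cells, 14.1 ± 2.33 in unlabelled B220- cells, 15.9 ± 0.62 in labelled B220+ cells, 9.59 ± 1.00 in labelled spleen B220- cells and 6.62 ± 2.14 in BMPC. With 2NBDG it was 0.583 times as high and without B220 0.513 times as high, both somewhat below the all-gene medians, and in each stratum the libraries did not overlap (exact permutation p = 0.005 for each, 0.0175 adjusted over 7). Erp44 stood at 0.489 ± 0.127 in unlabelled B220+ cells, 0.272 ± 0.013 in labelled B220+ cells, 0.234 ± 0.031 and 0.153 ± 0.013 in unlabelled and labelled B220- cells, and 0.101 ± 0.011 in BMPC. It was 0.610 times as high with 2NBDG and 0.522 times as high without B220 (exact permutation p = 0.005, 0.0175 adjusted over 7). Paired by replicate number, the 2NBDG and B220 differences of both genes reached the smallest p that 6 pairs allow (exact sign permutation p = 0.0313). Adjusted over 7 it is 0.109, so the paired test could not pass. In BMPC the value was 0.657 times that of spleen B220-2NBDG+ for Erp44, with no overlap (exact permutation p = 0.1), and 0.670 times for Mzb1, with overlap (p = 0.2).

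**Figure D4:**
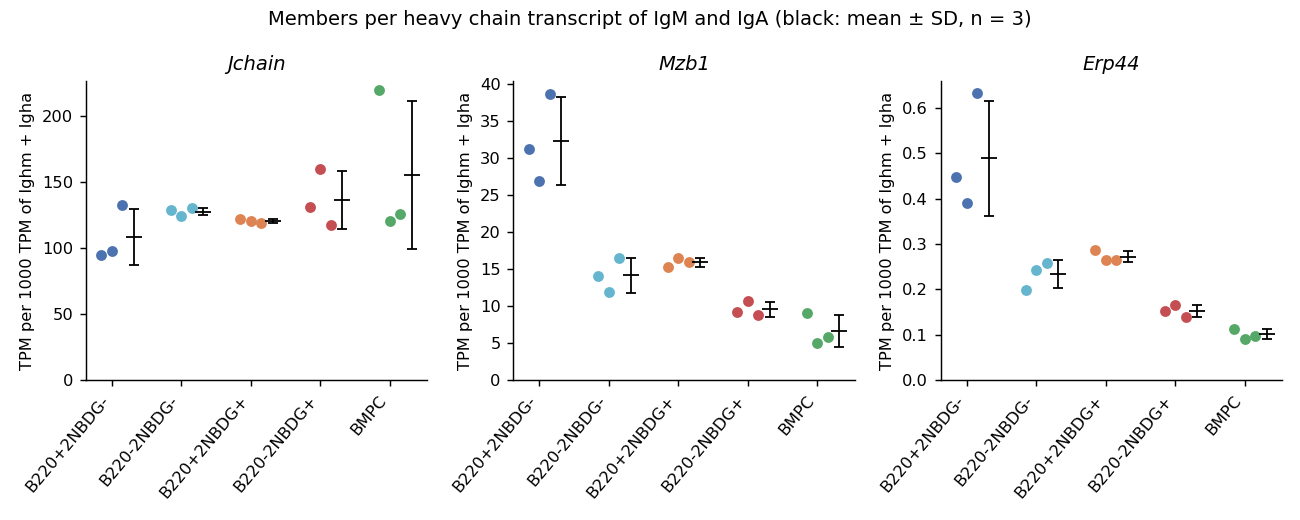
TPM of each gene per 1000 TPM of Ighm plus Igha in each library (points; bars, mean ± SD, n = 3), with linear axes that start at 0. Jchain lies between 94.6 and 160.3 in all libraries but BMPC replicate 1 (219.9), while Mzb1 and Erp44 are highest in B220+2NBDG- (means 32.3 and 0.489) and lowest in BMPC (6.62 and 0.101).

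ERp44 acts with a set of partners, and 13 of them were measured: the oxidases and clients it retains (Ero1l, Ero1lb, Prdx4, Sumf1, Erap1), the cargo receptor Lman1 with Mcfd2, the KDEL receptors Kdelr1 to Kdelr3 that bring it back from the Golgi, and the zinc transporters Slc30a5 to Slc30a7. None was called between spleen groups or between BMPC and spleen B220-2NBDG+ by limma with immunoglobulin genes set aside. Calls for this and the later gene lists are from the fit without the replicate number as a block. That block moved the count of all genes called for B220, averaged over 2NBDG, from 973 to 1136, and list calls are not given with it. At an unadjusted p under 0.05 the 2NBDG comparison gave 1 higher, the B220 comparison 2 lower and the bone marrow comparison 1 lower, where 7.71% of all genes were higher in the first, and 16% and 13% were lower in the others. The median of the 13 was -0.02 with 2NBDG and -0.08 without B220, beside -0.04 and -0.09 for all genes. Prdx4, the ER peroxidase and the most expressed of the 13, stood at 678 ± 107 TPM in B220+2NBDG- and 634 ± 60.1 TPM in BMPC, and its 2NBDG difference was 0.24 ± 0.09 (adjusted p = 0.163 by limma). As deposited, 12 of the 13 were called lower with 2NBDG and 10 without B220, on the scale where 73.4% and 59.5% of all genes were.

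Against B220+2NBDG-, 4 of the 13 fell in BMPC (21.5% of all genes fell) and none rose: Kdelr2 (-1.40), Slc30a5 (-0.99), Lman1 (-0.96) and Ero1lb (-0.75; adjusted p = 8.80e-04, 0.0197, 0.0105 and 0.0485 by limma). Kdelr2 stood at 246 to 264 TPM in B220+2NBDG-, 149 to 213 TPM in B220-2NBDG+ and 66.6 to 134 TPM in BMPC, so BMPC lay below both groups. It also fell against B220-2NBDG- (-1.36) and B220+2NBDG+ (-1.26), with adjusted p = 0.00239 and 0.00529 by limma. There 1 and 2 of the 13 were called lower, where 7.99% and 9.33% of all genes were. With median-of-ratios scaling Kdelr2 was the 1 member called in each of these 3 comparisons (-1.03, -1.04 and -0.88), where 7.56%, 3.91% and 1.7% of all genes were called lower.

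MZB1 works beside the general folding machinery for immunoglobulin, for which 24 genes were measured. With 2NBDG, Sil1, a nucleotide exchange factor of BiP, rose (0.40, though it was -0.27 as deposited) and Ppib, Calr and Hsp90b1 fell (-0.39, -0.36 and -0.32), and the other 20 did not pass the test (2.02% of all genes were called higher and 4.44% lower). Without B220, Sil1 (0.48 ± 0.09) and Cnpy2 (0.37) rose and Hsp90b1 (-0.49 ± 0.08), Ppib (-0.35) and Calr (-0.34) fell, where 2.8% of all genes were called higher and 5.85% lower. Hsp90b1 encodes GRP94, the partner of MZB1, and its B220 difference had limma's adjusted p = 0.00312. It stood at 3129 to 3434 TPM in B220+ and 2194 to 2514 TPM in B220- cells without the label, and at 2166 to 3016 TPM in B220+ and 1749 to 2000.4 TPM in B220- cells with it, so that B220+ lay above B220- at the same 2NBDG state. The median of the 24 was -0.08 with 2NBDG and -0.12 without B220, near that of all genes. With median-of-ratios scaling 1 rose and 1 fell with 2NBDG (Sil1 and Calr), and 2 rose and 1 fell without B220 (Sil1, Cnpy2 and Hsp90b1), beside 2.53% and 3.95% of all genes with 2NBDG and 4.91% and 4.1% without B220. As deposited none rose, and 21 and 17 of the 24 were called lower, on the scale where 73.4% and 59.5% of all genes were.

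Manf, a secreted ER stress protein that binds BiP, was the 1 folding gene called between BMPC and spleen B220-2NBDG+. It stood at 716 to 843 TPM in BMPC and 1119.8 to 1309 TPM in the spleen group, without overlap, a difference of -0.63 ± 0.14 (adjusted p = 0.0384 by limma), where 0.889% of all genes were called lower. With median-of-ratios scaling it was not called there, where 1.63% of all genes were called higher and 0.302% lower. The median of the 24 was -0.42 in that comparison, against -0.18 for all genes. Against B220+2NBDG-, 12 of the 24 fell in BMPC and Sil1 rose (0.74), among them Hsp90b1 and Manf (both -1.29), Calr (-1.15), Ppib (-1.08) and Hspa5, which encodes BiP (-0.63). Of all genes 21.5% were called lower and 5% higher there. Against B220-2NBDG- 9 of the 24 fell and against B220+2NBDG+ 11, and none rose (7.99% and 9.33% of all genes fell, 1.86% and 1.91% rose). With median-of-ratios scaling the lower calls against B220+2NBDG-, B220-2NBDG- and B220+2NBDG+ were 6, 5 and 2 (7.56%, 3.91% and 1.7% of all genes), and Hsp90b1 and Manf were among them in each. On that scaling 2, 0 and 1 were called higher (10.2%, 3.46% and 3.25% of all genes): Sil1 and Cnpy2 against B220+2NBDG- (1.11 and 0.67), and Sil1 against B220+2NBDG+ (0.57).

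**Figure D5:**
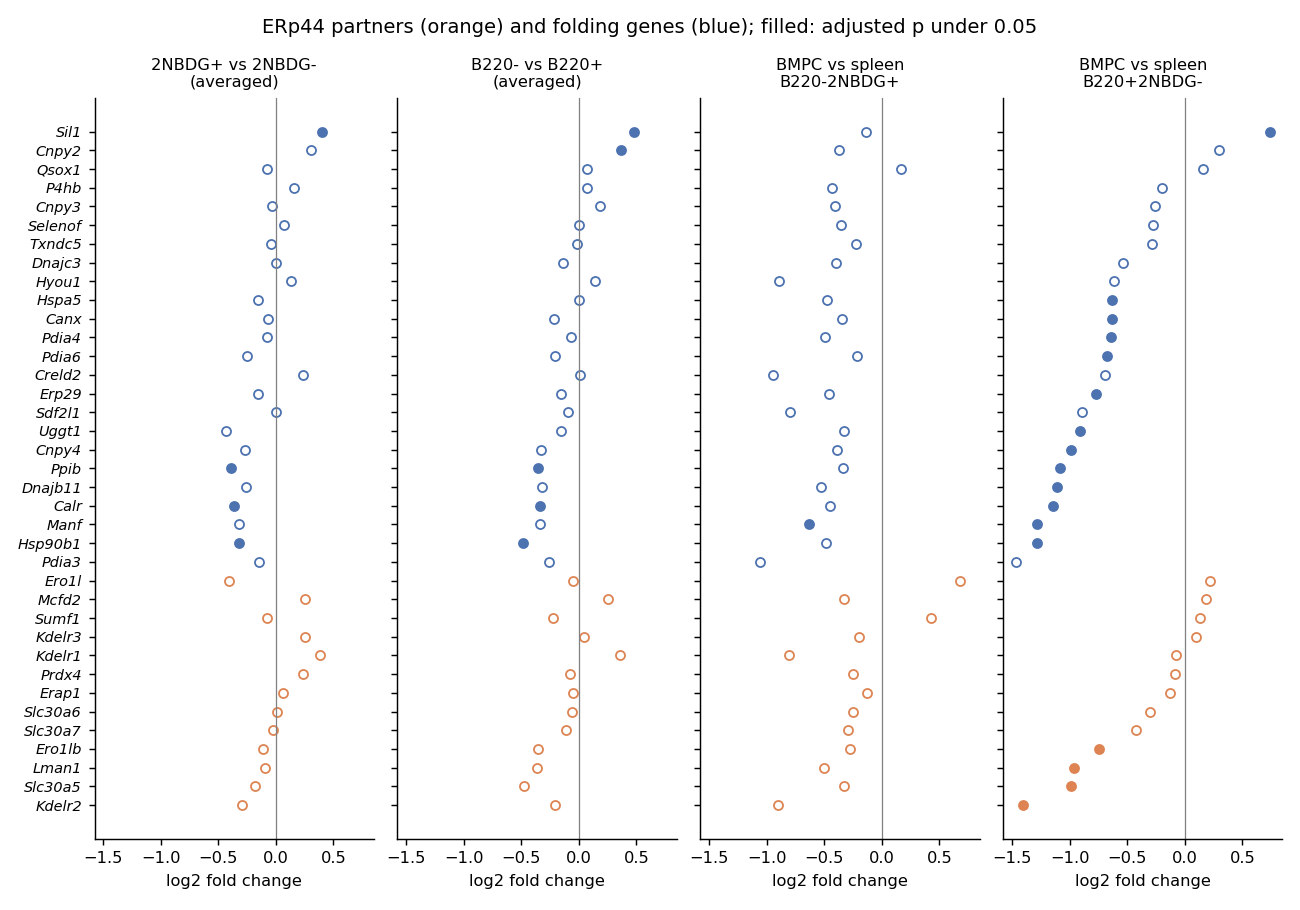
Log2 fold change of 24 immunoglobulin folding genes (blue) and 13 ERp44 partners (orange) in 4 comparisons, with immunoglobulin genes set aside (limma; filled, adjusted p under 0.05). Few symbols are filled for 2NBDG, B220 or BMPC against spleen B220-2NBDG+, and 12 folding genes and 4 partners are filled below 0 for BMPC against spleen B220+2NBDG-.

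Of 4 genes for receptors and binders of polymeric immunoglobulin, 2 were expressed enough to be tested. Pigr, the epithelial polymeric immunoglobulin receptor, and Fcamr, a receptor for IgA and IgM, stayed under 1 TPM in every group mean. Cd5l, a macrophage protein that binds J chain-containing IgM, ranged from 1.84 to 180.15 TPM over the libraries with no call in any comparison, and its 3 libraries spread widely in each group. The summed level of 6 macrophage and monocyte markers ranged over 125 to 1386 TPM in the same libraries, and its part in the Cd5l values was not tested. Fcmr, the Fc receptor for IgM, was 0.395 to 7.3 TPM in BMPC and 3.93 to 54.4 TPM in the spleen libraries. In BMPC it was not called against spleen B220-2NBDG+ (-1.69 ± 0.67, adjusted p = 0.221 by limma) and it was lower than in the other spleen groups (-3.05 against B220+2NBDG-, -2.69 against B220-2NBDG- and -3.17 against B220+2NBDG+, adjusted p = 0.00542, 0.0216 and 0.0109 by limma).

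Among 9 transcription factors known for plasma cell or Jchain control, Pax5 and Spib fell without B220 and the other 7 were not called with immunoglobulin genes set aside, where 5.85% of all genes were lower. Pax5, which represses Jchain in B cells, fell by 1.74 ± 0.39 (adjusted p = 0.0142 by limma), with means of 17.7 ± 13.3 and 8.26 ± 3.92 TPM in unlabelled and labelled B220+ cells and 2.99 ± 1.27 and 2.06 ± 0.30 TPM in unlabelled and labelled B220- cells. Spib fell by 1.17 ± 0.34 (adjusted p = 0.0458 by limma), and with median-of-ratios scaling only Pax5 was called (-1.64, 0.0209). Prdm1, Irf4 and Xbp1, which drive the plasma cell programme, were not called in any of the 13 comparisons fitted on this scale. With 2NBDG and in BMPC against spleen B220-2NBDG+ none of the 9 was called on it by limma, with 0 and 2 at an unadjusted p under 0.05, both lower (12.4% and 13% of all genes were lower at that p). As deposited, all 9 were called lower with 2NBDG, Prdm1, Irf4 and Xbp1 among them, and 6 without B220, where 73.4% and 59.5% of all genes were, and none was called in BMPC against spleen B220-2NBDG+.

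B cell and other markers moved with some of these groups. The 6 B cell markers summed to 319 to 1059 TPM in unlabelled and 271 to 485 TPM in labelled B220+ cells, 219 to 365 TPM in unlabelled and 114 to 232 TPM in labelled B220- cells, and 91.9 to 153 TPM in BMPC. The 6 T cell markers summed to 87.0 to 363 TPM in B220+2NBDG- and to at most 117 TPM in any other library. The 6 neutrophil markers summed to 4755 to 7978 TPM in BMPC and to 9.23 to 399.6 TPM in the spleen libraries. The 6 erythroid markers summed to 28.6 to 3838 TPM in the spleen libraries and 186 to 578 TPM in BMPC, and the 7 plasmacytoid dendritic cell markers to 394 to 668 TPM in all libraries. No marker was at 0 in a whole group. The part of these cells in the levels of Jchain, Mzb1 and Erp44 was not tested. Without replicate 3 of B220+2NBDG-, the 2NBDG difference was 0.92 (log2) for Jchain per Mzb1 and 0.82 for Jchain per Erp44, with exact permutation p = 0.0175 adjusted over 7 in each.

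Across the 15 libraries, 5069 tested genes with a mean of at least 10 TPM were ranked by Pearson r of log2(TPM + 1), as a description over libraries that share groups, sorts and scaling. The pattern of Jchain was most like that of Tmem176b (0.957), Mt2 (0.949), Bbs9 (0.944), Tmem176a (0.943) and Tnfrsf17 (0.943). Tnfrsf17 encodes BCMA, a survival receptor of plasma cells, and stood at 95.2 ± 3.84 TPM in B220+2NBDG- and 335 ± 7.99 TPM in B220-2NBDG+. Mzb1 was nearest to Tceal9 (0.935), Rpl5 (0.925), Slc1a5 (0.889), Pa2g4 (0.884) and Bud31 (0.881). Erp44 was nearest to Yipf5 (0.949), Ube2a (0.943), Preb (0.939), Rilpl2 (0.939) and Lman1 (0.937). Lman1, also called ERGIC-53, is the cargo receptor that ERp44 meets in the early secretory pathway, and Preb is the exchange factor that starts COPII vesicles. Between the 3 genes themselves r was 0.876 for Mzb1 with Erp44, -0.666 for Jchain with Mzb1 and -0.650 for Jchain with Erp44.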

How the data were processed

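Transcript abundance was measured in 15 libraries (5 sorted groups of 3), made with Smartseq and Nextera kits per the labels' protocols. The authors deposited TPM values for 63553 transcripts, estimated with Salmon 0.9.1 on GRCm38.p6 per the submitters' processing notes. TPM carries no depth. Reads were estimated from the steps of low values, of which 71.8% to 74.5% lay within 0.05 of a whole read, so no count model was run and depths are approximate.

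Transcripts were summed per gene, 262 immunoglobulin locus genes were set aside and the rest was rescaled to 1000000. The 11246 genes that reached 1 TPM in 3 or more libraries were tested on log2(TPM + 1), a scale that understates changes of low genes, with limma 3.58.1 (R 4.3.3, trend, 5 group means, 13 comparisons, Benjamini-Hochberg over all genes, threshold 0.05). Ratios were tested on the log2 scale by two-sided exact permutation and adjusted over 7 comparisons. The limma fit was tested on simulated data. Python 3.11.15, numpy 2.4.6 and pandas 2.3.3 were used.

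Deviations from group means of libraries with the same replicate number correlated at 0.193 to 0.415 in the 6 pairs of the B220 comparisons. By the rule that every pair exceed 0.1, the numbers pair those libraries, and also those of 2NBDG within B220- cells (0.156 to 0.307), but not those of the averaged 2NBDG comparison (5 of 6 pairs) or of BMPC with spleen B220-2NBDG+ (0 of 3). The averaged 2NBDG comparison missed the rule by a pair at 0.089. Over all spleen groups, same-numbered libraries correlated at 0.089 to 0.415 and differently numbered ones at -0.336 to 0.060. Its ratio tests are therefore also given paired.

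The rule for named genes took the 3 members always, up to 3 members of each list that were called in the averaged 2NBDG, averaged B220 or bone marrow comparison (or the 2 most expressed), Ighm and Igha, and the 5 most alike genes per member. Other list members named were chosen after their values were seen. The 3 genes and the lists were chosen with earlier results of these data known. Alternatives were other scales, pseudocounts, filters, denominators, a replicate block and leaving out each library. The ratios between the 3 genes and the alternatives with only J and D segments set aside, with Jchain left out of the total and with a pseudocount of 0.1 on deposited TPM were chosen after seeing the data.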

Additional observations from a re-analysis of the deposited data

How the results depend on the processing

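Values are log2 differences in the order 2NBDG averaged, within B220+, within B220-, then B220 averaged and within 2NBDG-, and the cause of changes was not tested. As deposited, Mzb1 (-0.87, -1.10, -0.64, -0.82, -1.05) and Erp44 (-0.68, -0.80, -0.57, -0.68, -0.79) became called, and Jchain lost the 2NBDG calls (0.035, 0.078) and the one within 2NBDG- (0.39) and was -0.0087 within B220-. With a pseudocount of 0.1 on that scale, the values were -0.87, -1.10, -0.65, -0.82 and -1.05 for Mzb1, -0.79, -0.90, -0.69, -0.78 and -0.89 for Erp44 (B220 within 2NBDG+ also called, -0.68), and 0.035, 0.078, 0.39 and -0.0087 for Jchain. With only J and D segments set aside, they were -0.80, -1.01, -0.60, -0.78 and -0.98 for Mzb1, -0.69, -0.78, -0.60, -0.71 and -0.79 for Erp44 (within 2NBDG+ -0.62), and 0.10 and 0.17 for the 2NBDG values of Jchain.

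Between B220-2NBDG+ and B220+2NBDG-, these 3 scales gave -1.69, -1.69 and -1.58 for Mzb1 and -1.36, -1.58 and -1.39 for Erp44, called, and as deposited 0.39 for Jchain, not called (0.39 with the lower pseudocount). For BMPC against B220-2NBDG- they gave -0.75, -0.75 and -0.71 for Mzb1 and -0.67, -0.81 and -0.72 for Erp44, called. Between B220+2NBDG+ and B220-2NBDG- the sign turned for Mzb1 (-0.053, -0.053, -0.025) and, on the first 2, Erp44 (-0.0094, -0.011), and the Erp44 interaction became 0.24, 0.21 and 0.18, none called. For BMPC against B220+2NBDG+, the Mzb1 call was lost as deposited (-0.69), without a filter (-0.64) and with Jchain left out of the total (-0.56). Median-of-ratios scaling lost the BMPC calls of Mzb1 against B220+2NBDG- and B220+2NBDG+ (-0.50, -0.25) and of Erp44 (-0.44, -0.38), and turned the sign of the Erp44 interaction (0.0091) and of Mzb1 within B220- (9.0e-04).

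Jchain between B220- and B220+ within 2NBDG+ (0.66) was called with at least 5 TPM, with a pseudocount of 0.1 and with the replicate block (limma's adjusted p under 0.05 in each). With the replicate block Mzb1 was also called for B220 averaged (-0.32), for B220-2NBDG+ against B220+2NBDG- (-0.48) and for BMPC against B220-2NBDG- (-0.49), where Erp44 was too (-0.56), and it changed no other call of the 3 genes by limma. It moved the count of all genes called from 247 to 485 for 2NBDG within B220+ and from 216 to 335 for BMPC against spleen B220-2NBDG+. Ratios paired by replicate number cannot pass (adjusted p = 0.109 at the least, exact sign permutation): Jchain per Mzb1 0.91 and 1.17, Jchain per Erp44 0.84 and 1.15, Mzb1 per Ighm plus Igha -0.78 and -0.96, Erp44 per Ighm plus Igha -0.71 and -0.94. Jchain was -0.028 with 2NBDG and -0.13 within B220- per Igkc, and -0.14, -0.10 (within B220+) and -0.18 (within B220-) per all heavy chain constant genes.

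Leaving out 1 library at a time, Jchain ranged over 0.83 to 1.12 with 2NBDG within B220+, 0.51 to 0.60 within B220- and 0.58 to 0.70 with B220 within 2NBDG+. Erp44 ranged over -0.18 to 0.015 with 2NBDG, -0.22 to 0.17 within B220+ and -0.32 to 0.076 for the interaction, and Mzb1 over -0.23 to 0.013 within B220- and -0.012 to 0.29 for the interaction. For BMPC, Mzb1 ranged over -0.77 to -0.50 against B220+2NBDG+ and -0.63 to -0.35 against B220-2NBDG-, and Erp44 over -0.86 to -0.69 and -0.63 to -0.51. Mzb1 ranged over -0.62 to -0.32 between B220-2NBDG+ and B220+2NBDG-. Jchain per Ighm plus Igha ranged over -0.039 to 0.19 within B220- and -0.14 to 0.30 for BMPC. Mzb1 per Erp44 ranged over -0.10 to 0.17 within B220-, -0.081 to 0.054 for B220 averaged, -0.26 to 0.0089 within 2NBDG- and -0.13 to 0.14 for BMPC. The count of all genes called moved from 726 to between 458 and 1157 with 2NBDG, from 973 to between 553 and 1342 with B220, and from 216 to between 60 and 403 for BMPC against spleen B220-2NBDG+, and over the other settings to between 528 and 8330, 736 and 6861, and 100 and 335. With 3 libraries a group, small differences of Mzb1 and Erp44 could not be told from the spread, and TPM without counts gives no counting error.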
